A study of Homo sapiens with 24 samples.

Results

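MPP1, PDZK1IP1, PAGE4, MEGF6, TMEM156, FLJ22447 and MAOA are 7 genes that showed some of the largest responses to kinase inhibitors in AGS cells and that belong to none of the signalling readouts of the series. They are 7 of the 23368 genes in the count table, and all 7 were among the 13947 genes that passed the filter on low counts. They were taken by symbol, and their measured values chose them. Each was one of the 2 largest rises or the 2 largest falls of a treatment against control, or of a combination against the mean of its single agents. They were selected on an adjusted p below 0.05, an average of 5 or more CPM (counts per 1000000 counts of a library) over all 24 libraries and one direction in all 4 batches.

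RNA was sequenced from AGS, an established human gastric adenocarcinoma line labelled wild type, after 24 h of treatment. The 6 groups were cells labelled as given no treatment (control), PI103 at 0.7 µM, PD0325901 at 0.035 µM, (5Z)-7-oxozeaenol at 0.5 µM (oxozeaenol below), PI103 with oxozeaenol, and PI103 with PD0325901. PI103 blocks PI3 kinase and mTOR, PD0325901 blocks MEK and oxozeaenol blocks TAK1. Each combination held 50% of the single-agent concentration of both compounds, so a combination differs from a single agent in dose as well as in compounds. Every group had 4 biological replicates of this 1 cell line, the replicate number is labelled as the batch, and nothing in the labels says whether control cells received vehicle.

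The libraries held 38.1 M to 84.2 M counts in genes (M for 1000000). All 7 epithelial markers examined were expressed in every library, with a summed level of 5300 to 8360 CPM, and EPCAM lay between 620 and 988 CPM. The leukocyte markers PTPRC and CD3E were at or near 0, with at most 0.101 and 0.0178 CPM, and CD68 lay between 0.617 and 3.5 CPM. CD68 rose by 1.49 log2 with PD0325901 (adjusted p = 8.52e-05 by edgeR) and by 1 with PI103 and PD0325901 (adjusted p = 0.00413), and lysozyme (LYZ) rose from 37.7 to 48.4 CPM in control to between 187 and 466 CPM in treated cells. The summed 6 leukocyte markers therefore lay at 38.7 to 49.3 CPM in control and 188 to 468 CPM in treated libraries. The summed 6 fibroblast markers, carried by PDGFRA and COL1A1, lay at 60.8 to 83.2 CPM in control, 99.1 to 112 with PI103 and 62.3 to 91 with PD0325901. They lay at 37.6 to 46.5 CPM with oxozeaenol, 43.6 to 53 with PI103 and oxozeaenol and 64.3 to 80.4 with PI103 and PD0325901, and DCN had at most 0.0176 CPM. The 4 endothelial markers summed to at most 0.452 CPM. The 3 muscle markers summed to 1.56 to 2.36 CPM in control and 3.92 to 22 CPM in treated libraries, nearly all from DES. The part of LYZ, CD68, DES and the fibroblast markers in the results that follow was not tested.

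The 7 genes have no shared function. MPP1 encodes p55, a membrane-associated guanylate kinase that links protein 4.1 and glycophorin C in the red cell membrane. PDZK1IP1 encodes MAP17, a small membrane protein that binds the scaffold PDZK1 in epithelia. PAGE4 is a disordered cancer-testis antigen of prostate and placenta that is phosphorylated by HIPK1 and CLK2 and modulates JUN. MEGF6 encodes a protein made largely of EGF-like repeats, and TMEM156 a transmembrane protein of little known function. FLJ22447 is a long noncoding RNA between PRKCH and HIF1A. MAOA encodes monoamine oxidase A, the outer mitochondrial membrane enzyme that oxidises serotonin and noradrenaline. The inhibited kinases act upstream of transcription factors such as AP-1, ETS and FOXO proteins, through the MAP kinase, TAK1 and PI3 kinase cascades.

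In GENCODE 29 (GRCh38), MPP1 lies on chrX:154778684-154821007 on the minus strand, PAGE4 on chrX:49829260-49833973 on the plus strand and MAOA on chrX:43654907-43746824 on the plus strand. PDZK1IP1 lies on chr1:47183593-47191044 and MEGF6 on chr1:3489920-3611495, both on the minus strand. TMEM156 lies on chr4:38966744-39032922 on the minus strand. FLJ22447, annotated as a lincRNA, lies on chr14:61570540-61658696 on the plus strand. Of its exonic bases 13.6% overlap another gene on the same strand and 4.3% one on the opposite strand. Neither of those genes was found by symbol in the count table. The FLJ22447 counts may therefore hold reads of the same-strand gene, and of the opposite-strand gene if strand was not used. If either was counted under another symbol, ambiguous reads may be missing instead. The exons of the other 6 genes overlap no exon of another annotated gene.

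The 250 bases before the start site are shown for the 3 genes that stood highest with PD0325901 and for TMEM156, which was lowest there. They are RefSeq sequences of GRCh38.p14, written 5′ to 3′ on the gene's strand, and capitals mark the searched motifs. RefSeq start sites need not be the outermost start in GENCODE, and for MPP1, PDZK1IP1 and TMEM156 the windows lie inside the GENCODE genes.
MPP1: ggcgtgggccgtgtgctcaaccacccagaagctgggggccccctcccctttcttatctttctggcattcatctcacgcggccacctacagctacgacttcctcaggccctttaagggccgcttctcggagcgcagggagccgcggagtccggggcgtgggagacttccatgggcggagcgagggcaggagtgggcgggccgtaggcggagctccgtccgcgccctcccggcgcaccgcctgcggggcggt
PDZK1IP1: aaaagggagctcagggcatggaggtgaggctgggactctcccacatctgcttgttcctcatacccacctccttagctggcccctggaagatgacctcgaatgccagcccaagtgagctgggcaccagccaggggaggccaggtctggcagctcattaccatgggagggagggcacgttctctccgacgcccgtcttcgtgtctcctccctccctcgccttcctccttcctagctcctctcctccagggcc
PAGE4: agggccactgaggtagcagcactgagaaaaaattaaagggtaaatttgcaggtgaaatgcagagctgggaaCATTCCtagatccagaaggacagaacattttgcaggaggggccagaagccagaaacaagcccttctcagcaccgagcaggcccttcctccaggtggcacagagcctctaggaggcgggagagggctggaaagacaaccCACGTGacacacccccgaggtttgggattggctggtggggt
TMEM156: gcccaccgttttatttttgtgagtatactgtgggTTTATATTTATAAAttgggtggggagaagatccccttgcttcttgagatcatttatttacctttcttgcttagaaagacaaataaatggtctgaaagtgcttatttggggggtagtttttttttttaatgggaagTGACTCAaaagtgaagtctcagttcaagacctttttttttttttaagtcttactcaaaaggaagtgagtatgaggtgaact
The windows are chrX:154805486-154805735 (MPP1, minus strand), chr1:47190037-47190286 (PDZK1IP1, minus strand), chrX:49829010-49829259 (PAGE4, plus strand) and chr4:39032410-39032659 (TMEM156, minus strand).

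The promoter windows differed in G and C content and in the searched motifs that they held. Windows were found for 6 of the 7 genes. MPP1 had 70% G and C with 25 CpG and PDZK1IP1 had 62.4% with 7 CpG, whereas TMEM156 had 34.8% with 1 CpG and PAGE4 had 55.2% with 4. Over 35116 promoters of the same length the medians were 58% and 11 CpG. Both strands were searched for AP-1 (TGANTCA), CRE (TGACGTCA), E-box (CACGTG), ETS (CCGGAA), FOXO (GTAAACA), TEAD (GGAATG), CARE (TGATGNAA) and TATAAA letters. In TMEM156 an AP-1 match lay 81 to 75 bases before the start, and overlapping TATAAA letters of either strand lay 216 to 203 bases before it. In PAGE4 an E-box lay 41 to 36 bases and TEAD letters lay 179 to 174 bases before the start. Another RefSeq window of PAGE4 (chrX:49829053-49829302) held the same letters, 84 to 79 and 222 to 217 bases before its start. Of all promoters, 6.57% held the AP-1 letters, 10.7% TATAAA, 6.34% the E-box and 11.9% the TEAD letters. The CRE letters were in 1.65% of all promoters, ETS in 14.5%, FOXO in 2.98% and CARE in 3.14%. MPP1, PDZK1IP1, MEGF6 and MAOA had no match in these windows, which says only that these letters are not there.

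The comparisons that chose the genes are given as a description. MPP1 stood first and PDZK1IP1 second among genes higher with PD0325901 than in control, with log2 fold changes of 6.24 and 5.83, and CYMP at 5.49 was just outside. PDZK1IP1 stood second with PI103 and PD0325901 together at 5.68, and TNNT2 at 5.49 was just outside. With oxozeaenol PAGE4 stood second among higher genes at 4.81, just ahead of PDZK1IP1 at 4.44. In the other direction with oxozeaenol TMEM156 stood first at -5.26, followed by EGR1 at -4.85, with TRIB3 just outside at -4.83. MEGF6 stood second among genes higher with PI103 at 2.97, just ahead of LBH at 2.59. For the combination of PI103 and oxozeaenol against the mean of its agents, FLJ22447 at -1.19 and MAOA at -1.09 were the 2 lowest, and COL4A1 at -0.85 was just outside. Between 51.4% (PI103) and 64.8% (PI103 with PD0325901) of all genes were called against control.

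The name of strong single responders held only in part. Each gene differed from control in the same direction in all 4 batches of at least 4 of the 5 treatments. This count is a description, since one direction in all 4 batches was a condition of the choice. The 5 treatments, 2 of them combinations, share their control libraries, and the share of all genes with this pattern was not counted. MAOA was among the smaller responders with single agents. Its log2 fold changes against control lay between -0.39 and -1.71, and among candidates lower than control it ranked 2044 with PI103, 1830 with PD0325901, 408 with oxozeaenol, and 102 (oxozeaenol) and 269 (PD0325901) in the combinations. The median absolute change of all genes tested against control was 0.345 to 0.474.

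Tests are given only where a comparison held no library of the comparison that chose the gene, and where the gene's mean over 24 libraries would have reached the minimum of 5 CPM even with the compared libraries counted as 0. There were 25 such tests in 14 comparisons, and the quasi-likelihood test of edgeR, with p adjusted by Benjamini-Hochberg over all genes, called 19 of them. For 8 further pairs of gene and comparison the comparison chose the gene, and for 74 it shared libraries with one that did. For 12 more, of MPP1, TMEM156 and FLJ22447, the compared libraries were needed to reach the minimum. All of these are values with standard errors (SE) and no p.

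Against PI103, members were called in 1 of 1 test with PD0325901, where 44.5% of all genes were called, in 1 of 1 with oxozeaenol (43.1%), in 3 of 3 with PI103 and oxozeaenol (18.3%) and in 1 of 1 with PI103 and PD0325901 (38.7%). Against PD0325901, the 1 member tested with oxozeaenol, MEGF6, was not called (28.5% of all genes), and members were called in 3 of 3 tests with PI103 and oxozeaenol (36.8%) and 3 of 5 with PI103 and PD0325901 (18.1%). Against oxozeaenol, they were called in 1 of 2 tests with PI103 and oxozeaenol (14.9%) and 1 of 1 with PI103 and PD0325901 (43.9%). Between the 2 combinations they were called in 1 of 3 tests (29.9%). Against control, 1 of 1 was called with PD0325901 (58.6%) and 1 of 1 with PI103 and PD0325901 (64.8%). Against the mean of the agents, 1 of 1 was called for PI103 and oxozeaenol (3.98%) and 1 of 1 for PI103 and PD0325901 (22%). With at most 5 members in a comparison, these counts say little beyond each gene's own values.

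**Figure D1:**
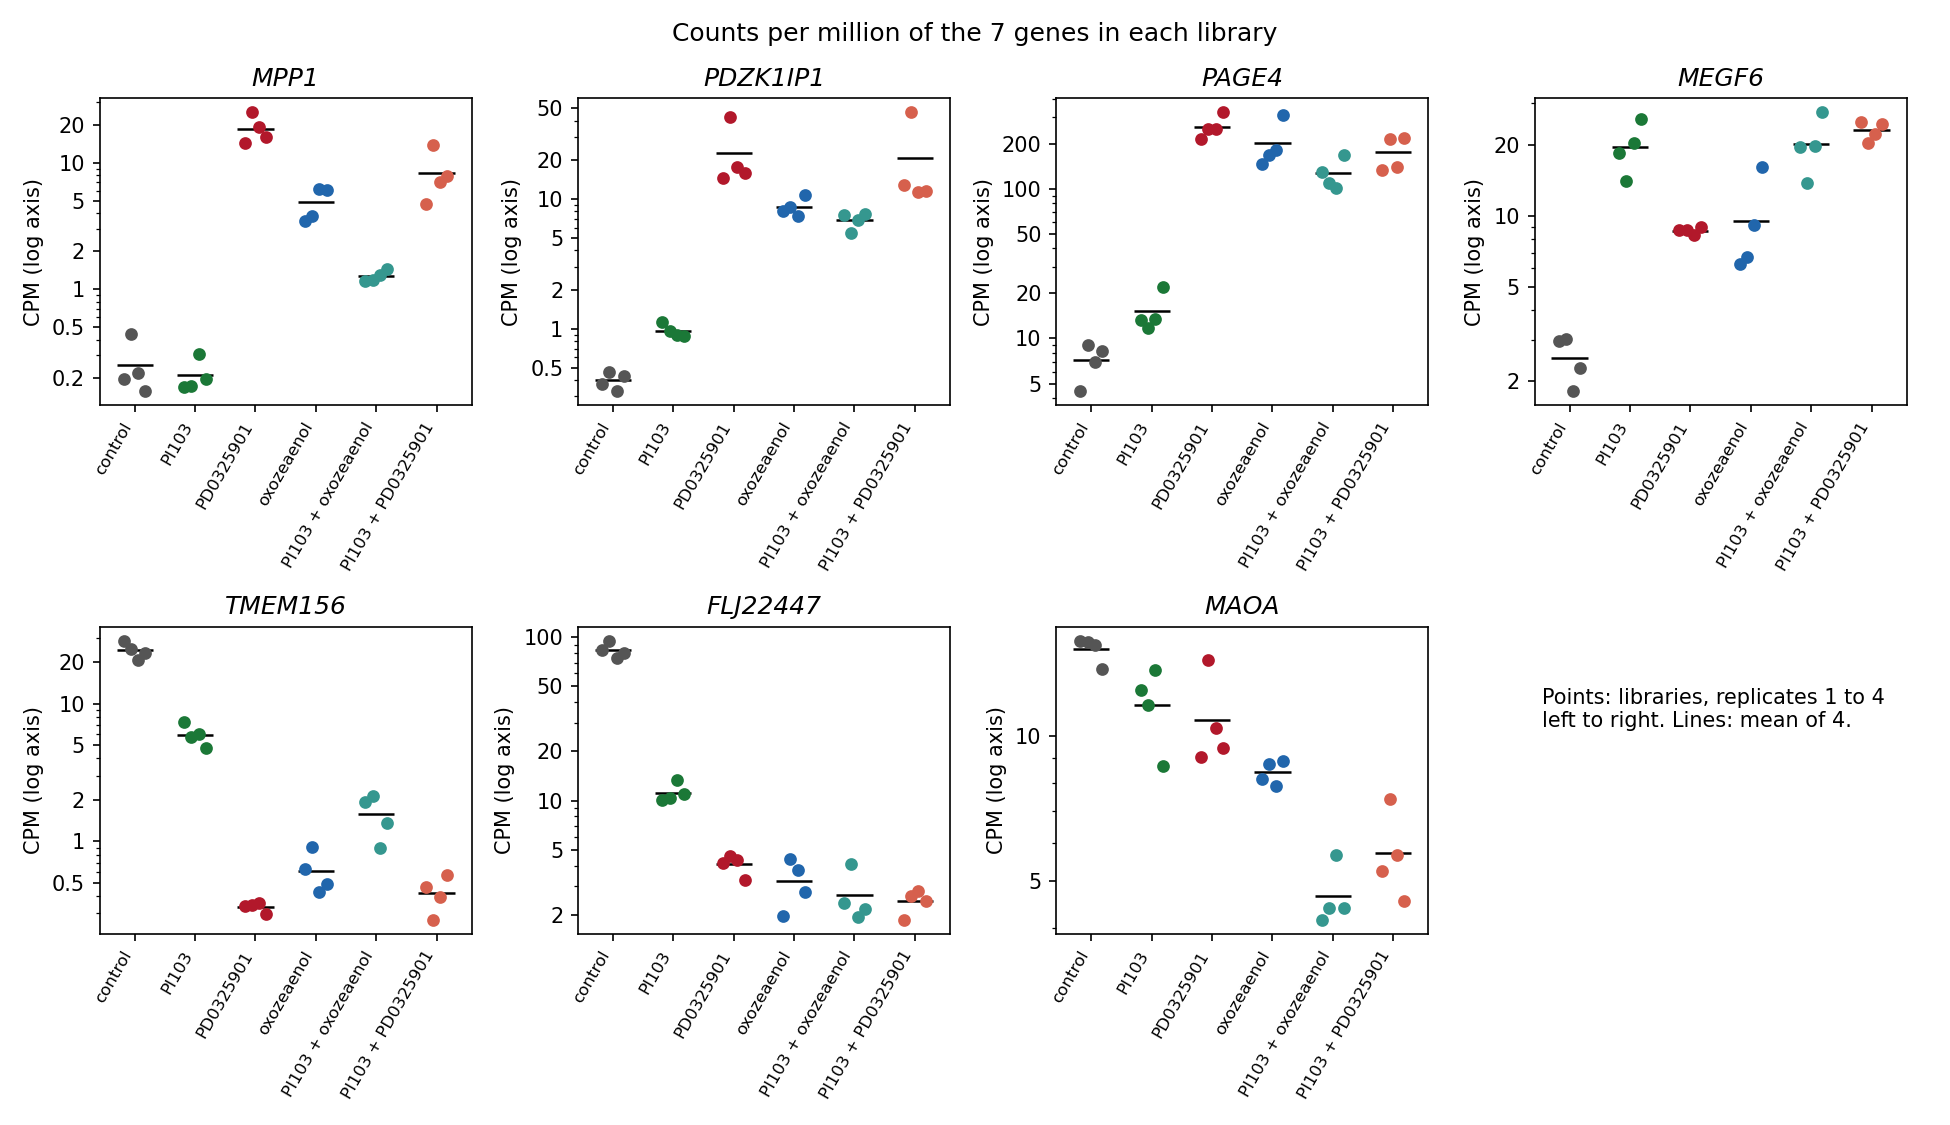
CPM of the 7 genes on log axes, 1 panel per gene, with each of the 24 libraries as a point (replicates 1 to 4 from left to right in each of the 6 groups) and the mean of 4 as a line. MPP1, PDZK1IP1 and PAGE4 have their highest mean with PD0325901, MEGF6 is highest in the 3 groups that held PI103, and TMEM156, FLJ22447 and MAOA are highest in control.

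MPP1 was close to silent in control cells and with PI103, and was on in every group that held PD0325901 or oxozeaenol. Control libraries had 0.194, 0.447, 0.22 and 0.157 CPM (12 to 24 counts), and PI103 libraries had 0.169, 0.173, 0.309 and 0.194 CPM (10 to 18 counts). With PD0325901 the libraries had 14.2, 25.2, 19 and 16 CPM. The 4 PD0325901 libraries were above all other libraries, while control and PI103 overlapped. Oxozeaenol gave 3.48, 3.83, 6.22 and 6.14 CPM. With PI103 and oxozeaenol the libraries had 1.16, 1.19, 1.3 and 1.46 CPM, and with PI103 and PD0325901 they had 4.71, 13.9, 7.06 and 7.82 CPM. In bulk RNA, a gene active in fewer cells and a gene with less RNA per cell cannot be told apart. The order of the group means was PD0325901, PI103 with PD0325901, oxozeaenol, PI103 with oxozeaenol and then control and PI103.

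MPP1 rose over PI103 with PI103 and oxozeaenol, by 2.58 ± 0.386 log2 (SE, adjusted p = 3.33e-05 by edgeR), without overlap of libraries. The other differences of MPP1 are values only, since the compared libraries either chose the gene or were needed to meet the minimum. Oxozeaenol lay 4.52 ± 0.361 above PI103, and PI103 with PD0325901 lay 5.3 ± 0.358 above it, by 4.38 to 6.08 within batches. The combination of PI103 and oxozeaenol lay -1.94 ± 0.286 from oxozeaenol and 0.32 ± 0.287 from the mean of its agents, and so between them. PI103 with PD0325901 lay 2.71 ± 0.285 above PI103 with oxozeaenol. It lay 0.77 ± 0.259 above oxozeaenol, with overlap of libraries, and 0.41 above it without replicate 2 of the combination. Against control MPP1 was 75.4-fold higher with PD0325901 (6.24 ± 0.351 log2), 19.8-fold higher with oxozeaenol (4.31 ± 0.348), 5.158-fold higher with PI103 and oxozeaenol (2.37 ± 0.37) and 33.8-fold higher with PI103 and PD0325901 (5.08 ± 0.346). The difference of PI103 from control was -0.22 ± 0.478. The red cell marker HBA2 had 0 counts in all 24 libraries, and the 5 erythroid markers summed to at most 0.0859 CPM.

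PDZK1IP1 was low in control, somewhat higher with PI103 and much higher in the other groups. Control libraries had 0.372, 0.466, 0.33 and 0.433 CPM, and PI103 libraries had 1.12, 0.954, 0.891 and 0.872 CPM. The values were 14.5, 42.9, 17.5 and 15.7 CPM with PD0325901 and 12.7, 46.7, 11.2 and 11.4 CPM with PI103 and PD0325901. In both of these groups replicate 2 was far above the other 3 libraries. Oxozeaenol gave 8.04, 8.58, 7.32 and 10.7 CPM and PI103 with oxozeaenol 7.48, 5.44, 6.87 and 7.59 CPM. No library of PI103 reached the lowest library of any other treatment, and the last 2 groups overlapped.

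The PDZK1IP1 level rose over PI103 with oxozeaenol by 3.17 ± 0.445 log2 (SE, adjusted p = 6.52e-06 by edgeR) and with PI103 and oxozeaenol by 2.83 ± 0.444 (adjusted p = 8.34e-05 by edgeR). Oxozeaenol at 50% together with PI103 did not differ detectably from oxozeaenol alone, at -0.34 ± 0.379 (adjusted p = 0.593 by edgeR). That combination was above the mean of its agents by 1.24 ± 0.339 (adjusted p = 0.0396 by edgeR), in all 4 batches by 0.91 to 1.4. The call was lost in 10 of 12 fits that left out 1 library, where adjusted p ranged from 0.0326 to 0.155 by edgeR, and the value from 1.19 to 1.34. Against control the gene was 56.7-fold higher with PD0325901, 51.4-fold with PI103 and PD0325901, 21.8-fold with oxozeaenol and 17.2-fold with PI103 and oxozeaenol. Without replicate 2 of PI103 and PD0325901, the log2 fold change of that combination was 4.89 in place of 5.68, and without replicate 2 of PD0325901 that of PD0325901 was 5.34 in place of 5.83. PI103 alone gave 2.417-fold (1.27 ± 0.558 log2). PI103 and PD0325901 together lay 2.13 ± 0.324 log2 above the mean of their agents, and 1.34 above it without replicate 2 of the combination. The difference between that combination and PD0325901 alone, -0.14 ± 0.364, changed to 0.36 without replicate 2 of PD0325901 and to -0.94 without replicate 2 of the combination.

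PAGE4 was the most abundant of the 4 genes that stood higher after treatment, also per kilobase of exon, where its mean level went from 3.68 CPM per kb in control to 133 with PD0325901. Control libraries had 4.45, 9.07, 6.99 and 8.22 CPM, and PI103 libraries had 13.3, 11.8, 13.5 and 22.2 CPM. PD0325901 gave 215, 250, 250 and 326 CPM and oxozeaenol gave 146, 167, 182 and 313 CPM. All libraries with PD0325901 or oxozeaenol, alone or combined, had at least 101 CPM, and no control or PI103 library exceeded 22.2 CPM. The combinations had 130, 110, 101 and 167 CPM (oxozeaenol) and 134, 216, 139 and 219 CPM (PD0325901), and overlapped each other.

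PAGE4 rose over PI103 in all 3 groups in which that could be tested. The difference was 4.1 ± 0.279 log2 with PD0325901 (SE, adjusted p = 5.85e-11 by edgeR), 3.06 ± 0.267 with PI103 and oxozeaenol (adjusted p = 1.58e-08 by edgeR) and 3.54 ± 0.272 with PI103 and PD0325901 (adjusted p = 7.64e-10 by edgeR). The latter combination was above the mean of its agents by 1.49 ± 0.205 (adjusted p = 2.14e-05 by edgeR), in all 4 batches by 1.26 to 1.99. PI103 with oxozeaenol was below PD0325901, at -1.04 ± 0.247 (adjusted p = 0.00203 by edgeR). The difference of PI103 and PD0325901 from PD0325901 alone, -0.56 ± 0.245, was not called (adjusted p = 0.115 by edgeR), but was called with the batch as a block in the model, at -0.57 ± 0.15 (adjusted p = 0.00877 by edgeR). The difference between the combinations, 0.48 ± 0.245 (adjusted p = 0.146 by edgeR), was likewise called with the block, at 0.47 ± 0.151 (adjusted p = 0.0194 by edgeR). Against control PAGE4 was 36.3-fold higher with PD0325901, 28.1-fold with oxozeaenol, 24.6-fold with PI103 and PD0325901, 17.7-fold with PI103 and oxozeaenol and 2.117-fold with PI103. Oxozeaenol replicate 4, at 313 CPM, moved the difference between oxozeaenol and PD0325901 from -0.37 to -0.66 when left out.

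MEGF6 was high wherever PI103 was given, at the full or the lowered concentration. Control libraries had 2.95, 3.02, 1.82 and 2.28 CPM and PI103 libraries 18.4, 14.1, 20.3 and 25.6 CPM. PD0325901 gave 8.7, 8.71, 8.29 and 9.01 CPM and oxozeaenol 6.25, 6.71, 9.14 and 16.1 CPM. With PI103 and oxozeaenol the libraries had 19.5, 13.8, 19.8 and 27.5 CPM, and with PI103 and PD0325901 they had 25, 20.3, 22.3 and 24.5 CPM. The 3 groups that held PI103 overlapped one another and were above all PD0325901 libraries, and oxozeaenol replicate 4 was the 1 library without PI103 to reach into their range.

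With PI103 and PD0325901, MEGF6 rose by 1.41 ± 0.237 log2 over PD0325901 alone (SE, adjusted p = 0.000278 by edgeR), by 1.22 to 1.52 within batches, although each compound was at 50%. PI103 with oxozeaenol was above PD0325901 by 1.21 ± 0.236 (adjusted p = 0.000303 by edgeR) and above oxozeaenol by 1.08 ± 0.236 (adjusted p = 0.00337 by edgeR). The second of these was not called when only the 8 libraries of the comparison were fitted (1.07 ± 0.33, adjusted p = 0.0607 by edgeR). PI103 with PD0325901 was above oxozeaenol by 1.27 ± 0.236 (adjusted p = 0.000157 by edgeR). PD0325901 and oxozeaenol were not told apart, at 0.14 ± 0.238 (adjusted p = 0.699 by edgeR) and -0.25 without oxozeaenol replicate 4 (adjusted p = 0.391), nor were the combinations, at 0.19 ± 0.229 (adjusted p = 0.563 by edgeR). Against PI103 at its full concentration the combinations differed by 0.04 ± 0.23 (oxozeaenol) and 0.23 ± 0.229 (PD0325901). MEGF6 was 7.849-fold higher than control with PI103, 3.475-fold with PD0325901, 3.817-fold with oxozeaenol, 8.063-fold with PI103 and oxozeaenol and 9.217-fold with PI103 and PD0325901.

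TMEM156 was far lower in treated cells, most of all with PD0325901. Control libraries had 28.7, 24.8, 20.7 and 23.5 CPM and PI103 libraries 7.32, 5.72, 6.02 and 4.8 CPM. PD0325901 left 0.337, 0.343, 0.358 and 0.295 CPM (18 to 25 counts). Oxozeaenol left 0.626, 0.904, 0.426 and 0.494 CPM (15 to 66 counts). Control and PI103 stood apart from each other and from all other groups. PI103 with oxozeaenol gave 1.92, 2.14, 0.89 and 1.36 CPM. PI103 with PD0325901 gave 0.463, 0.269, 0.391 and 0.566 CPM (16 to 37 counts). The last of these overlapped both PD0325901 and oxozeaenol.

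Compared with PI103, TMEM156 lay at -4.15 ± 0.25 log2 with PD0325901 (SE), at -3.82 ± 0.242 with PI103 and PD0325901 and at -1.91 ± 0.208 with PI103 and oxozeaenol. These carry no test, since PI103 libraries were needed for the gene to meet the minimum. Adding PI103 and lowering PD0325901 to 50% left it at 0.33 ± 0.303 from PD0325901 alone, which was not called (adjusted p = 0.48 by edgeR). The same combination lay -1.75 ± 0.243 from the mean of its agents. PI103 with oxozeaenol was less depleted, 2.25 ± 0.262 above PD0325901 (adjusted p = 3.86e-07 by edgeR), and the difference of PI103 with PD0325901 from it was -1.92 ± 0.252 (adjusted p = 4.58e-06 by edgeR). PI103 with oxozeaenol also lay 1.32 ± 0.242 above oxozeaenol at its full concentration. Against control TMEM156 was 72.7-fold lower with PD0325901, 57.9-fold with PI103 and PD0325901, 38.3-fold with oxozeaenol, 15.3-fold with PI103 and oxozeaenol and 4.089-fold with PI103.

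FLJ22447 was the most abundant of the 7 genes in control per kilobase of exon, at 31.4 CPM per kb. Control libraries had 83.7, 95.2, 74.9 and 80 CPM and PI103 libraries 10.1, 10.3, 13.3 and 10.9 CPM. With PD0325901 they had 4.12, 4.55, 4.34 and 3.27 CPM, and with oxozeaenol 1.97, 4.37, 3.77 and 2.77 CPM. No library overlapped between control, PI103 and the remaining groups, while the remaining 4 groups lay within 1.86 to 4.55 CPM. The combinations had 2.35, 4.06, 1.94 and 2.18 CPM (oxozeaenol) and 1.86, 2.59, 2.78 and 2.44 CPM (PD0325901).

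Relative to control FLJ22447 lay at -4.36 ± 0.213 log2 with PD0325901 (SE), or 20.5-fold lower, and at -5.11 ± 0.223 with PI103 and PD0325901, or 34.6-fold lower, in 4 of 4 batches each. These carry no test, since control libraries were needed to meet the minimum. The combination of PI103 and PD0325901 was below PD0325901 alone, at -0.76 ± 0.211 (adjusted p = 0.0151 by edgeR), with no overlap of libraries. That call was lost without replicate 1 of the combination (adjusted p = 0.0662 by edgeR) and without PD0325901 replicate 3 (adjusted p = 0.0512 by edgeR). Values that share libraries with the choosing comparison were -2.9 ± 0.196 for PI103, -4.7 ± 0.218 for oxozeaenol and -4.98 ± 0.221 for PI103 and oxozeaenol against control. The combination of PI103 and PD0325901 lay -1.48 ± 0.188 from the mean of its agents.

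MAOA was modestly lower after each single agent and lowest in the combinations. Control libraries had 15.8, 15.7, 15.5 and 13.8 CPM, PI103 libraries 12.5, 11.6, 13.7 and 8.67 CPM and PD0325901 libraries 9.07, 14.4, 10.4 and 9.43 CPM. Oxozeaenol gave 8.16, 8.76, 7.89 and 8.89 CPM. The single-agent groups overlapped in part. With PI103 and oxozeaenol the libraries had 4.15, 4.39, 5.66 and 4.39 CPM, and with PI103 and PD0325901 they had 5.24, 7.41, 5.66 and 4.55 CPM. Every combination library was below every single-agent and control library, and the combinations overlapped each other.

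MAOA fell by 0.49 log2 (SE 0.15) with PD0325901 against control (adjusted p = 0.00657 by edgeR), or 1.405-fold, with a drop in 4 of 4 batches of between -0.8 and -0.12, although PD0325901 replicate 2 lay within the control range. With PI103 and PD0325901 it fell by 1.41 (SE 0.154) against control (adjusted p = 1.27e-08 by edgeR) and by 0.92 (SE 0.154) against PD0325901 alone (adjusted p = 0.000191 by edgeR), by -1.05 to -0.79 within batches. The values against control that share libraries with the choosing comparison were -0.39 ± 0.149 with PI103, -0.85 ± 0.152 with oxozeaenol and -1.71 ± 0.156 with both. Against the mean of its agents PI103 with PD0325901 stood at -0.97 ± 0.137, and at -1.12 without replicate 2 of the combination.

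**Figure D2:**
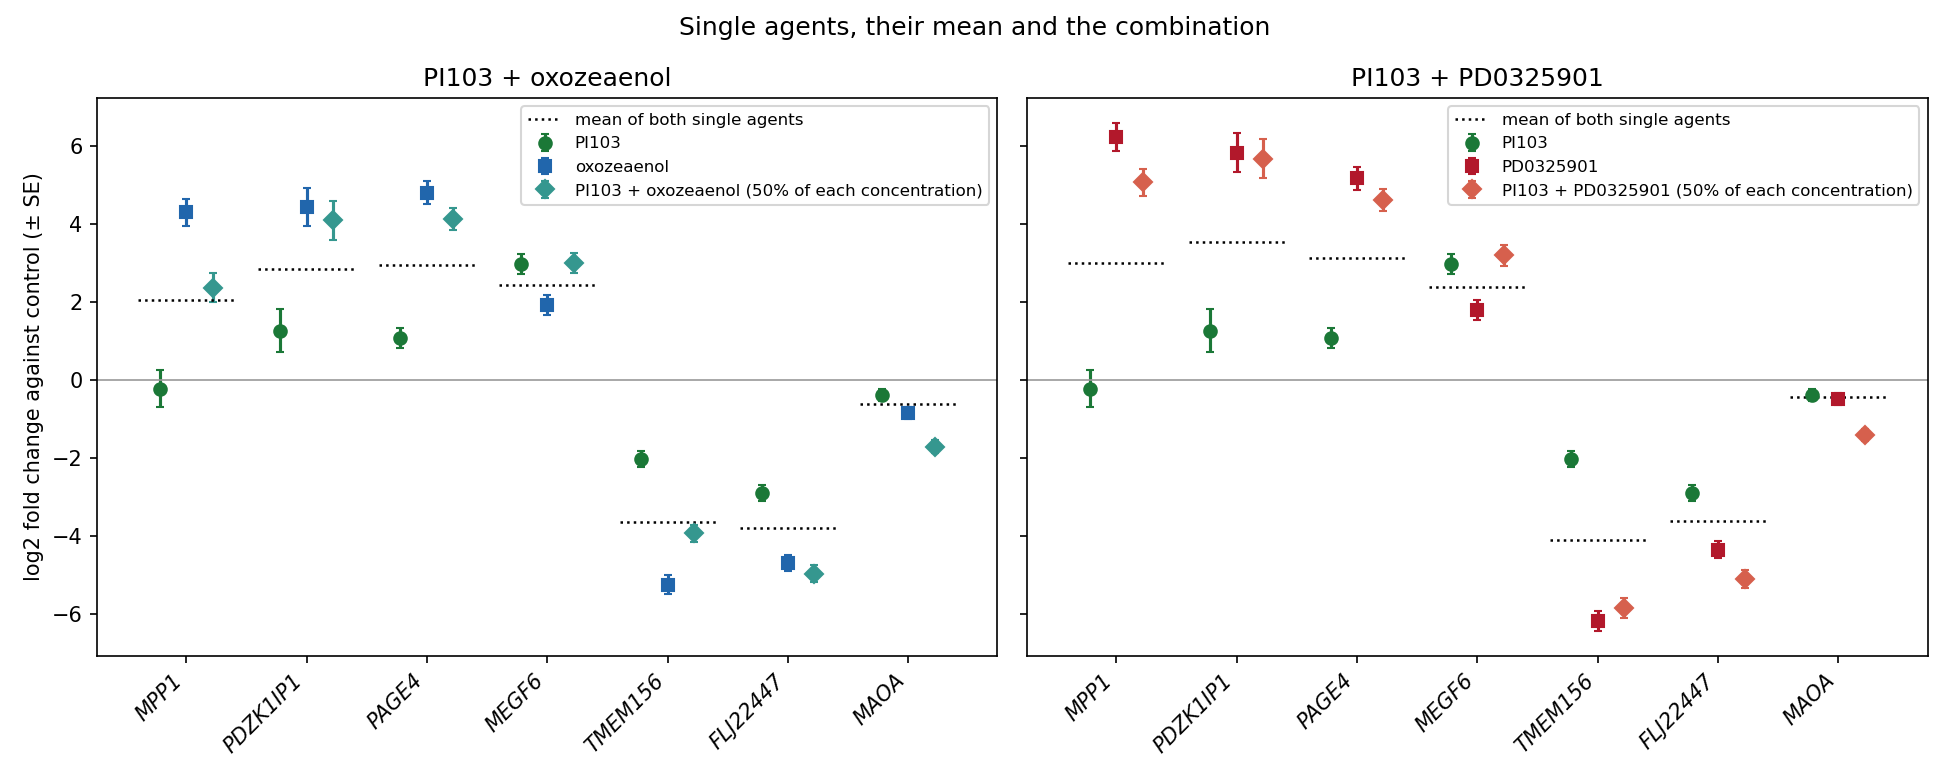
Log2 fold changes against control with standard errors for the 7 genes, with PI103 and oxozeaenol in the left panel and PI103 and PD0325901 in the right, single agents beside the combination at 50% of each concentration, and a dotted line at the mean of both single agents. In both panels MAOA lies below its 2 agents, MEGF6 lies beside PI103, and MPP1 lies near the dotted line with oxozeaenol (2.37) but well above it with PD0325901 (5.08).

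The combinations did not all relate to their agents in the same way. Of the tested differences from the mean of the agents, PAGE4 passed for PI103 with PD0325901, toward the PD0325901 level, and PDZK1IP1 passed for PI103 with oxozeaenol. Leaving out 1 library lost the PAGE4 call in 0 of 12 fits and the PDZK1IP1 call in 10 of 12. MAOA was lower in both combinations than with either agent, but its difference from the mean of PI103 and oxozeaenol chose it. Of its differences from the agents in the other combination, only that from PD0325901 alone was tested. MEGF6 was close to the PI103 level in both combinations, which was not tested. For MPP1 the differences from the mean of the agents were both positive, 0.32 ± 0.287 with oxozeaenol and 2.07 ± 0.249 with PD0325901. These are values only, and the difference between them was not tested.

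Genes within 250 kb of the 7 were examined in GENCODE 29, which gave 66 genes in the count table, of which 33 were tested. With PI103, 8 were called higher and 7 lower, with PD0325901 16 and 7, with oxozeaenol 12 and 8, with PI103 and oxozeaenol 10 and 10, and with PI103 and PD0325901 12 and 11. Of all genes 51.4%, 58.6%, 51.9%, 55.6% and 64.8% were called in these comparisons, which is the background for these counts. Of all genes, 25.7% to 32.2% were called higher and 25.2% to 32.6% lower. The median log2 fold change of neighbours was 0.02, 0.25, 0.24, 0.02 and 0.1 in that order, and that of all genes lay between -0.024 and 0.022.

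KLHL5, which encodes a kelch-domain protein, starts 12.1 kb from TMEM156 on the opposite strand (chr4:39045039-39126857) and fell with it. Its mean was 746 ± 36.6 CPM in control, 539 ± 59.8 with PI103, 150 ± 14.7 with PD0325901, 208 ± 24.4 with oxozeaenol, and in the combinations 325 ± 23.3 (oxozeaenol) and 204 ± 27.9 CPM (PD0325901, SD, n = 4). All 5 changes against control were called by edgeR, from -0.47 ± 0.105 log2 with PI103 (adjusted p = 0.000545) to -2.32 ± 0.11 with PD0325901 (adjusted p = 1.84e-14). The order of the group means was that of TMEM156, with oxozeaenol and PI103 with PD0325901 close to each other. On the other side of TMEM156, FAM114A1 at 21 kb rose in all 5 treatments, by 0.9 to 1.89. TLR6, a receptor for bacterial lipopeptides at 109.9 kb, fell in 4, by -1.72 to -2.15, and PI103 gave -0.35 (adjusted p = 0.345 by edgeR). TLR6 had 43 to 87 counts in control libraries and 8 to 15 with PD0325901.

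Around FLJ22447 the nearby genes moved in mixed directions. PRKCH, which encodes protein kinase C eta and ends 19.6 kb before it (chr14:61187559-61550976), fell with PI103 by 1.5 log2 (adjusted p = 4.01e-05 by edgeR). PRKCH rose by 0.96 with PD0325901, 2.41 with oxozeaenol and 2 with PI103 and oxozeaenol (largest adjusted p = 0.000913 by edgeR), and was not called with PI103 and PD0325901 (0.26, adjusted p = 0.34). HIF1A, the hypoxia-inducible factor subunit 36.8 kb away, fell in 3 treatments, by 0.47 with PI103, 0.45 in the combination with oxozeaenol and 0.55 in that with PD0325901. HIF1A was not called with PD0325901 (-0.23, adjusted p = 0.0768 by edgeR) or oxozeaenol (-0.24, adjusted p = 0.0731), and both passed with the batch block (adjusted p = 0.0194 and 0.0197). SNAPC1, a subunit of the small nuclear RNA activating complex, fell in all 5 treatments, with changes of -1.04 to -0.49. IL33, a cytokine reported with this noncoding RNA, had at most 5 counts in a library and was not tested.

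MAOB encodes the paralogous monoamine oxidase B and lies 19.8 kb from MAOA on the opposite strand (chrX:43766611-43882447). It rose with PI103 alone and with PD0325901 alone. It had 0.799 ± 0.151 CPM in control and 2.5 ± 0.642 CPM with PI103 (SD, n = 4), a rise of 1.65 ± 0.257 log2 (adjusted p = 7.28e-06 by edgeR). With PD0325901 it rose by 0.73 ± 0.261 (adjusted p = 0.019 by edgeR), a call lost without control replicate 3 (adjusted p = 0.0639). The other 3 treatments gave 0.24, -0.17 and 0.28 and were not called.

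Near MEGF6, TP73, a p53-family transcription factor 41 kb away, rose by 3.09 ± 0.354 log2 with PD0325901 and 3.23 ± 0.353 with PI103 and PD0325901 (adjusted p = 4.55e-08 and 1.33e-08 by edgeR). TP73 had at most 2.32 CPM in any library, and its rise with PI103, 0.94 (adjusted p = 0.0446 by edgeR), was lost in 4 of 8 fits without 1 library. TPRG1L and ARHGEF16, at 13.5 and 8.8 kb, rose in all 5 treatments, by 0.71 to 1.15 and 0.38 to 0.53. Near PAGE4, the deubiquitinase gene USP27X at 46 kb rose in all 5, by 0.94 with PI103 and 1.73 with PD0325901. The chloride transporter gene CLCN5 at 88.6 kb fell in all 5, with changes of -0.26 to -0.75. Its call with oxozeaenol was lost in the fit of only the libraries compared. Near MPP1, DKC1, which encodes dyskerin and lies 1 kb away, fell in 4 treatments, with changes of -0.41 to -0.85, and gave -0.19 with PD0325901 (adjusted p = 0.116 by edgeR, 0.0349 with the batch block). The clotting factor gene F8 at 14.8 kb rose by 1.03 both with PD0325901 and with its combination. Its rises in the other 3 treatments, 0.69 to 0.76, were each lost in 5 of 8 fits without 1 library. Near PDZK1IP1, FOXD2 at 245 kb rose in all 5 by 1.07 to 1.52, and the pyrimidine kinase gene CMPK1 at 142.8 kb rose by 0.72 with PD0325901, 0.44 with oxozeaenol and 0.6 with PI103 and PD0325901. With PI103 and oxozeaenol CMPK1 gave 0.28 (adjusted p = 0.084 by edgeR), which passed with the batch block (adjusted p = 0.0391) and in the fit of only the libraries compared.

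**Figure D3:**
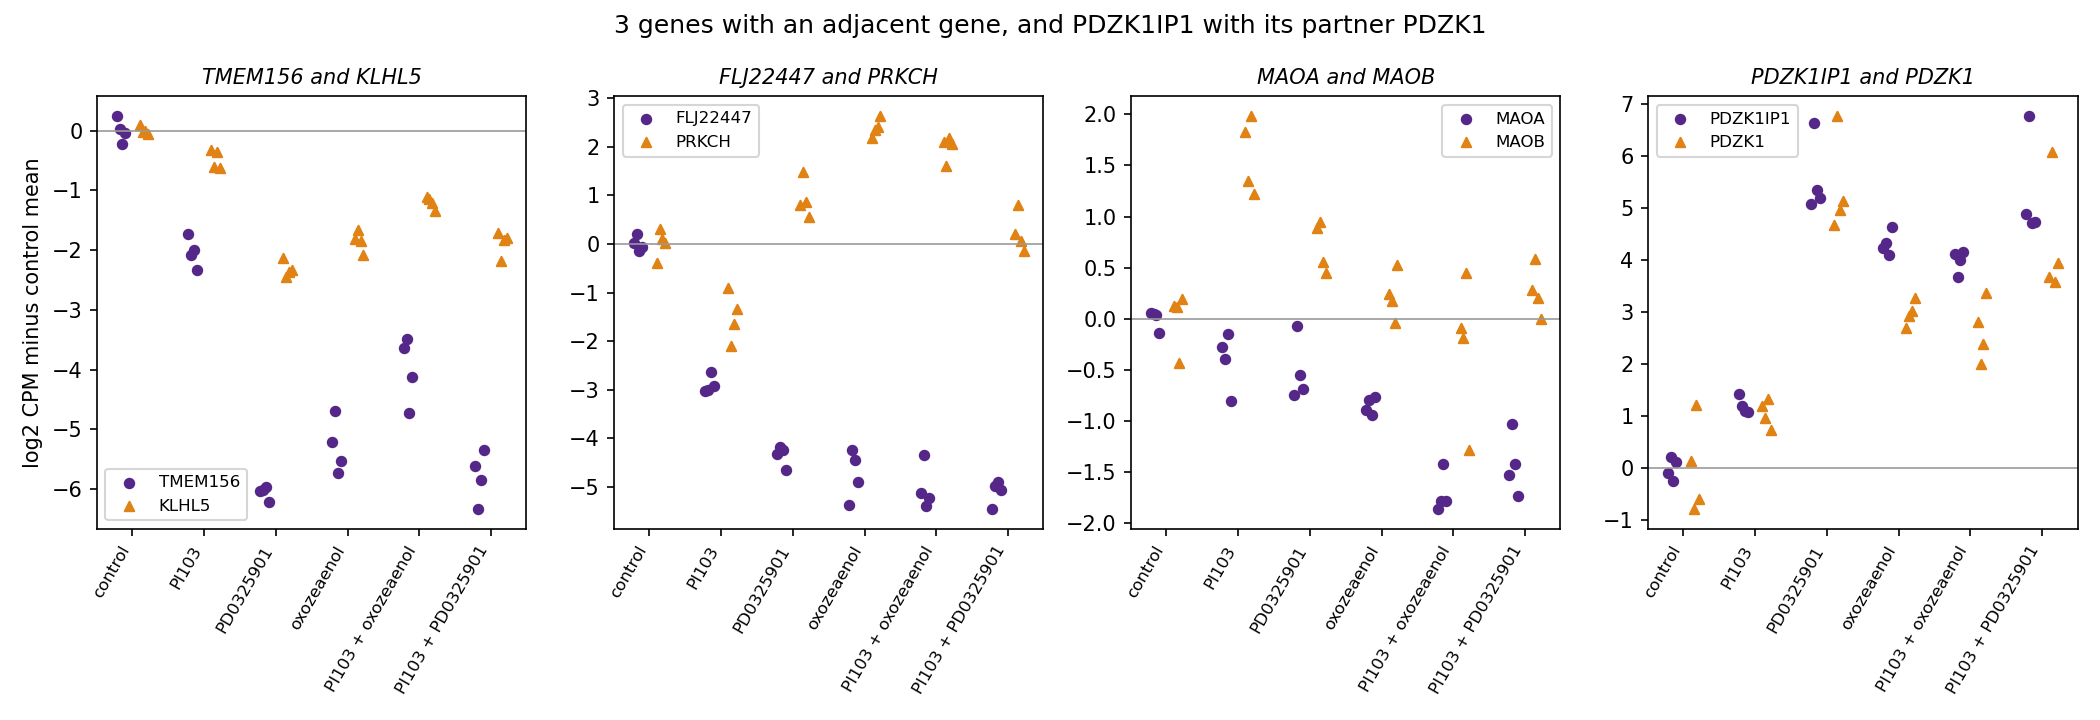
Log2 CPM minus the control mean in each library of the 6 groups, for TMEM156 with KLHL5, FLJ22447 with PRKCH, MAOA with MAOB and PDZK1IP1 with PDZK1. TMEM156 and KLHL5 lie below 0 in all treated libraries, PRKCH lies above 0 in all oxozeaenol libraries while FLJ22447 lies below 0 in all treated libraries, MAOB lies above 0 in all PI103 libraries, and PDZK1IP1 and PDZK1 lie above 0 in all treated libraries.

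Relatives and partners of each gene were counted from lists. Of 18 tested MAGUK genes and partners of MPP1, 2 were higher and 2 lower with PI103, 10 and 4 with PD0325901, 6 and 5 with oxozeaenol, 7 and 4 with PI103 and oxozeaenol and 8 and 4 with PI103 and PD0325901. Of all genes, 25.7% to 32.2% were called higher and 25.2% to 32.6% lower in these comparisons. Their median log2 fold change was 0.03, 0.32, 0.11, 0.09 and 0.12 in that order. The tight junction scaffold gene TJP3 rose in all 5, by 0.53 with PI103 and 2.03 with PD0325901 (adjusted p = 9.9e-12 by edgeR). DLG2, a synaptic scaffold gene, rose in 4, by 3.65 with PD0325901 and 3.44 with oxozeaenol, and PI103 gave 0.47 (adjusted p = 0.391 by edgeR). DLG2 had only 3 to 11 counts in control libraries. LIN7C, a partner of CASK, fell in all 5, with changes of -0.36 to -0.85, and the call with oxozeaenol was lost in 2 of 8 fits without 1 library. GYPC, the glycophorin that binds MPP1 in red cells, had 0 counts in all libraries.

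Of 10 tested PDZ adaptors and transporters, 3 were higher and 1 lower with PI103, 6 and 0 with PD0325901, 6 and 0 with oxozeaenol, and 5 and 2 in each combination. The shares over all genes were 25.7% to 32.2% higher and 25.2% to 32.6% lower. The medians were 0.01, 0.63, 0.43, 0.3 and 0.29. The phosphate transporter gene SLC34A3 rose in all 5, by 2.29 with PD0325901 and 3.34 with PI103 and PD0325901. Its rise of 1.54 with oxozeaenol was lost without oxozeaenol replicate 4 (0.76, adjusted p = 0.162 by edgeR). SLC34A3 had only 8 to 16 counts in control libraries. The carnitine transporter gene SLC22A5 rose by 0.38 to 1.19 and SLC9A3R2, which encodes the scaffold NHERF2, by 0.32 to 0.74. The SLC22A5 rise with PI103 was lost in 3 of 8 fits without 1 library.

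PDZK1, the direct partner of PDZK1IP1, was singled out after its values were seen. It had 0.0186 to 0.171 CPM in control (1 to 14 counts), 2.21 to 9.51 CPM with PD0325901 and 1.01 to 5.88 CPM with PI103 and PD0325901. PDZK1 rose by 5.82 ± 0.689 log2 with PD0325901 (adjusted p = 1.49e-07 by edgeR), 3.1 ± 0.745 with oxozeaenol (adjusted p = 0.00129), 2.82 ± 0.753 with PI103 and oxozeaenol (adjusted p = 0.00278) and 4.9 ± 0.693 with PI103 and PD0325901 (adjusted p = 1.46e-06). PI103 gave 0.99 ± 0.897 (adjusted p = 0.368 by edgeR). Without control replicate 3 the PD0325901 value was 6.85, and without replicate 2 of PI103 and PD0325901 the value of that combination was 3.87.

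PAGE4 passed the filter on low counts, and the other cancer-testis antigens listed did not. All 41 others were in the table, 24 had 0 counts in every library and none passed that filter. The highest mean over all libraries was 0.0657 CPM, for the PAGE4 relative PAGE1. Multiply aligned reads were not counted to genes, so listed genes with near-identical copies can be undercounted. Their 0 counts do not show that they were silent. Of the reported PAGE4 partners, JUN fell in all 5 treatments, by 0.34 with PI103, 0.5 with PD0325901, 1.34 with oxozeaenol, and 0.89 (oxozeaenol) and 0.36 (PD0325901) in the combinations. The first and last of these calls were lost in 4 and 3 of 8 fits without 1 library. The kinase gene HIPK1 fell in 4 treatments, with changes of -0.31 to -0.4, of which the PD0325901 and PI103 with PD0325901 calls were lost in 2 and 1 of 8 such fits. CLK2 rose by 0.45 to 0.58 in the 3 groups with PI103, and its value with oxozeaenol (0.24, adjusted p = 0.0782 by edgeR) passed with the batch block (adjusted p = 0.0306).

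Of 14 tested genes for proteins with multiple EGF-like domains, 10 were higher and 0 lower with PI103, 9 and 1 with PD0325901, 10 and 0 with oxozeaenol, 10 and 0 with PI103 and oxozeaenol, and 11 and 1 with PI103 and PD0325901. Of all genes, 26.2%, 28.7%, 25.7%, 27.7% and 32.2% were called higher in these comparisons, in that order, and 25.2%, 29.9%, 26.1%, 27.9% and 32.6% lower. The medians were 0.93, 0.79, 0.52, 0.85 and 1.15. The scavenger receptor gene SCARF2 rose by 1.67 with PI103 to 3.13 with PI103 and PD0325901, from a mean of 0.112 CPM in control. LTBP2, a gene of the latent TGF-beta binding protein family, rose by 1.63 with oxozeaenol to 2.3 with PI103.

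Of 16 tested genes of monoamine handling, 4 were higher and 4 lower with PI103, 9 and 2 with PD0325901, 7 and 2 with oxozeaenol, 6 and 2 with PI103 and oxozeaenol and 7 and 3 with PI103 and PD0325901. Beside these stand 25.7% to 32.2% of all genes called higher and 25.2% to 32.6% lower. The list's medians were 0.06, 0.36, 0.24, 0.26 and 0.34. ALDH1A1, an aldehyde dehydrogenase gene, rose by 4.11 with PD0325901 and 4.1 with oxozeaenol but fell by 1.45 with PI103. The call of that fall was lost without control replicate 3 (-1, adjusted p = 0.119 by edgeR). ALDH1A1 had only 4 to 21 counts in control libraries and 2 to 5 with PI103. SLC18A2, the vesicular monoamine transporter gene, rose by 1.29 with PI103 and fell by 3.05 with PD0325901 and 2.16 with oxozeaenol. Its libraries held 38 to 117 counts in control and 3 to 10 with PD0325901. ALDH7A1 rose in all 5 by 0.24 to 0.7, and the smallest, with oxozeaenol, was lost in 5 of 8 fits without 1 library. Of 8 tested regulators reported for MAOA transcription, 1 was higher and 7 lower with PD0325901, 2 and 1 with PI103, 0 and 4 with oxozeaenol, 0 and 1 with PI103 and oxozeaenol and 1 and 3 with PI103 and PD0325901. With PD0325901, 28.7% of all genes were called higher and 29.9% lower, with PI103 26.2% and 25.2%, with oxozeaenol 25.7% and 26.1%, and with the combinations 27.7% to 32.2% and 27.9% to 32.6%. EGR1, an immediate early factor, fell in all 5, with changes of -3.9 to -6.97. FOXO1 rose by 0.63 with PI103 and fell by 0.56 with PD0325901 and 0.8 with oxozeaenol. CDCA7L, a repressor of MAOA, fell by 1.8 with PD0325901 and 1.4 with PI103 and PD0325901.

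The genes most like each of the 7 were found by Pearson correlation of log2 CPM over the 24 libraries among 11625 genes with a mean of at least 1 CPM. These libraries share their groups and batches, so the correlations only describe likeness. MPP1 was most like HSD3B1 (r = 0.975) and MTSS1 (0.974). HSD3B1, a steroid dehydrogenase gene, had 0.346 ± 0.104 CPM in control, 7.25 ± 1.79 with PD0325901 and 1.74 ± 0.281 with oxozeaenol (SD, n = 4). PDZK1IP1 was most like USH1C (0.992), APOD (0.99) and TP53I11 (0.989). USH1C, which encodes the microvillar PDZ scaffold harmonin, had 2.07 ± 0.349 CPM in control and 28.8 ± 8.57 with PD0325901 (SD, n = 4). PAGE4 was most like SLC25A29 (0.971), LYPD2 (0.971) and PRSS23 (0.969), and MEGF6 was most like HDAC6 (0.959), ITGA7 (0.957) and FGFR3 (0.956).

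Among the genes that stood lower, TMEM156 was most like CCDC50 (0.978), its neighbour KLHL5 (0.977) and PTPN12 (0.969). FLJ22447 was most like SERPINB2 (0.97), GTF3C3 (0.96) and SMOX (0.957). SERPINB2, which encodes plasminogen activator inhibitor type 2, had 10.9 ± 3.66 CPM in control, 0.866 ± 0.353 with PI103 and 0.165 ± 0.0237 with PD0325901 (SD, n = 4). MAOA had less close companions, TSC22D1 (0.885), NRD1 (0.864) and SYTL3 (0.859). TSC22D1 stood lower in both combinations than in their agents, with log2 fold changes of -0.24, -0.24 and -0.63 with PI103, PD0325901 and oxozeaenol, and -0.9 and -0.62 in the combinations with oxozeaenol and PD0325901.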

How the data were processed

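For 24 libraries the authors deposited raw counts of reads by gene symbol, made with a stranded mRNA kit from 0.8 µg of total RNA, per the labels' protocols. The build is GRCh38, per the submitters' processing notes; the aligner, counting program and strand setting are not given in the sources used here. Separate rows tally reads outside any feature (4.24% to 8.57% per library), reads in several genes (1.57% to 2.01%) and multiply aligned reads (4.64% to 6.06%), which entered no library size or test. Genes with near-identical copies can be undercounted.

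Groups were taken from sample titles. In R 4.3.3, edgeR 4.0.16 filtered the counts (filterByExpr), scaled them (TMM) and tested them (glmQLFit and glmQLFTest, robust, two-sided), 1 coefficient per group over all 24 libraries, which gave a common biological coefficient of variation of 0.131. The script was tested on simulated data. There were 17 contrasts, each adjusted by Benjamini-Hochberg over 13947 genes, and calls are at an adjusted p under 0.05. CPM are counts per 1000000 of TMM-scaled library size, and log2 CPM used a prior count of 2. The alternatives were DESeq2 1.42.0, RLE factors, no filter, the batch as a block, a fit of only the libraries compared, and leaving out each library.

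The batch number pairs the samples, per the labels. After subtracting each group's mean log2 CPM, same-batch libraries of different groups correlated at 0.12 on average (60 pairs) and others at -0.0394 (180 pairs). P-values measure the spread between cultures of 1 line.

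The 7 genes, the lists and the tests were chosen with earlier results of these data known. The choosing rule returns these genes when the minimum of 5 CPM applies to the mean over all libraries. Read as the mean of the higher group, as the plan was worded, it returns only MEGF6 of the 7. Because all libraries entered this minimum, a p is given only where the libraries not compared would have met it alone, a condition added after the values were seen. Genes named beside the 7 are the one just outside each choice, the 3 most alike, and at most 3 per list or per gene's neighbours that were called in the most treatments, ties broken by size. Genes outside this rule, such as PDZK1, MAOB and IL33, were singled out with their values known. Some genes that the rule names are not reported here.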

Additional observations from a re-analysis of the deposited data

Results flagged for a closer look

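In 42 groups of 4 libraries (7 genes in 6 groups), 5 held a library whose gap to its nearest neighbour was large for the range of its group by Dixon's 95% criterion. Chance flags about 1 in 20 groups. PDZK1IP1 had 42.9 CPM in replicate 2 of PD0325901, where the others had 14.5 to 17.5 CPM, and 46.7 CPM in replicate 2 of PI103 with PD0325901, where the others had 11.2 to 12.7 CPM. PAGE4 had 22.2 CPM in replicate 4 of PI103 beside 11.8 to 13.5 CPM in the others. MAOA had 13.8 CPM in control replicate 4 beside 15.5 to 15.8 CPM, and 5.66 CPM in replicate 3 of PI103 with oxozeaenol beside 4.15 to 4.39 CPM.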

How the results depend on the processing

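Of 25 tests on the 7 genes, 1 that was not called changed direction: MEGF6 for oxozeaenol against PD0325901 (0.14) was -0.25 without oxozeaenol replicate 4, and 0.28 at most without another library. The replicate block changed 2 calls, both of PAGE4: PI103 with PD0325901 against PD0325901 (-0.57) and against PI103 with oxozeaenol (0.47). It changed no other call of the 7. A fit of only the libraries compared lost MEGF6 for PI103 with oxozeaenol against oxozeaenol (1.07). No filter lost PDZK1IP1 for PI103 with oxozeaenol against the mean of agents (1.23). DESeq2 and RLE factors changed none. Leaving out 1 library lost calls in 2 tests, with values of -0.85 to -0.64 for FLJ22447 (PI103 with PD0325901 against PD0325901) and 1.19 to 1.34 for PDZK1IP1 (against the mean of agents). The cause was not tested.

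Counts of called genes moved by over 1.5 times in these cases. With only the libraries compared, oxozeaenol against PD0325901 had 2348 (3976 in the full fit), PI103 with oxozeaenol against PI103 4088 (2553), PI103 with PD0325901 against PD0325901 1222 (2521) and PI103 with oxozeaenol against the mean of agents 887 (555), the last also 997 with the replicate block. Without 1 library, the ranges were 2385 to 4282 for oxozeaenol against PD0325901, 1050 to 2571 for PI103 with oxozeaenol against oxozeaenol (2074), 1385 to 3113 for PI103 with PD0325901 against PD0325901 and 2702 to 3997 for the 2 combinations (4170). Against the mean of agents they were 232 to 781 for PI103 with oxozeaenol and 1466 to 3977 for PI103 with PD0325901 (3065). Depth limits MPP1 in control and with PI103, where a library held 10 to 24 counts. It also limits PDZK1IP1 in control (23 to 33 counts). TMEM156 is limited with PD0325901 (18 to 25 counts), with PI103 and PD0325901 (16 to 37) and with oxozeaenol (15 to 66).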
